A study of Mus musculus with 4 samples.

Results

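T cells from mice with a deletion of Cd274, the gene for PD-L1, in dendritic cells were compared with T cells from control mice. Both had received doxorubicin, each group was 1 single-cell library, and the comparison was made separately in CD8 and CD4 cells. A barcode was kept with at least 300 genes and at most 10% of its unique molecular identifiers (UMIs, counted mRNA molecules) from mitochondrially encoded genes. A CD8 cell held at least 2 UMIs of Cd8a and Cd8b1 together and none of Cd4, a CD4 cell held at least 1 UMI of Cd4 and none of Cd8a or Cd8b1, and neither held a UMI of the B cell gene Cd79a. The rule took 12824 cells of the 22810 barcodes in the pair and of 48597 in the series: 5109 CD8 and 1825 CD4 cells of the control library (WT-DOX) and 4101 CD8 and 1789 CD4 cells of the knockout library (KO-DOX). Summed over a lineage, this gave 20861880 and 17832134 UMIs for CD8 cells and 6912725 and 6981610 UMIs for CD4 cells of WT-DOX and KO-DOX.

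The genotype labels read Control and PD-L1 knockout, and the series design gives the knockout as conditional to dendritic cells. Both doxorubicin libraries came from mice inoculated with MC38-OVA (MC38 is a colon carcinoma line of the mouse, here with ovalbumin as a model antigen), and so did the untreated pair of the same genotypes (WT-CTRL and KO-CTRL), which shares no library with the doxorubicin pair and is set beside it. The driver of the deletion, the age of the mice and the number of mice behind a library are not given in the labels. Sorted live T cells of the draining lymph nodes were the material, so the deletion in dendritic cells could not be checked in these libraries. With 1 library per group there is no replicate and no test: every interval below is a 95% interval for counting error alone. Intervals of levels and shares are exact, while those of folds, of differences between folds and of ratios are normal approximations on the log scale. None of them covers the spread between mice and between library preparations. Genotype, mouse and library preparation cannot be told apart.

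PD-L1 on dendritic cells binds PD-1 on T cells and restrains signalling from the T cell receptor and from CD28. A T cell that answers antigen in a lymph node divides: it first switches on genes of DNA replication, many of them driven by E2F factors, then makes histones while it copies its DNA, and later switches on genes of mitosis, many of which carry a cell cycle homology region (CHR) in their promoter. CD4 cells can become follicular helper cells, which help B cells, or effector cells with cytokine and cytotoxic genes, while CD8 cells become cytotoxic effector and memory cells.

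Before any difference is given, 2 features set the libraries apart. Zbed5 stood at 258 CPM (the gene's UMIs as a share of the lineage's, on the usual scale of that name) in CD8 cells of WT-DOX and at 1.12 in KO-DOX, with 1.10 in WT-CTRL and 1.04 in KO-CTRL, and it was found in 2849 CD8 cells of WT-DOX against 20 of KO-DOX. Transcripts encoded by the mitochondrial genome were low in KO-DOX: they made up a median of 0.0322% of a CD8 cell's UMIs and 0.0264% of a CD4 cell's, against 0.0553% and 0.0424% in WT-DOX. The rest of the libraries' quality was close. The median CD8 cell held 3555 UMIs in WT-DOX and 3583 in KO-DOX, and the median CD4 cell 2989 and 2986. The pair shared 175 cell barcodes, which were 1.41% of those of WT-DOX and 1.69% of those of KO-DOX. No doublet caller was run, and doublets were treated by the marker rule alone. The summed level of the T cell markers was 3081 and 2970 CPM in CD8 cells, and 3374 and 3423 in CD4 cells, of WT-DOX and KO-DOX, while neutrophil markers were at 0 in both libraries. Of 8 B cell markers, which summed to 243 and 298 CPM in CD8 cells and to 344 and 444 in CD4 cells, Cd79a was at 0 by the rule. Ighm made up 150 and 142 CPM of the sum in CD8 cells and 208 and 216 in CD4 cells. Cd74, the class II invariant chain, made up 78.2 and 141 CPM in CD8 cells and 131 and 222 in CD4 cells. Cd74 differed by more between the libraries than Ighm in both lineages. Where stated below, cells holding a UMI of another cell type's marker were left out, by a list that did not include Cd74 or Ighm. It included Cd79b, which was found in 244 CD8 cells of WT-DOX and 184 of KO-DOX, where 405 and 325 CD8 cells were left out. That setting thus does not measure the part of B cells or class II cells alone.

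CD8 cells were 41.1% (interval 40.2 to 42.0) of the kept barcodes in WT-DOX and 39.5% (38.6 to 40.5) in KO-DOX. CD4 cells were 14.7% (14.1 to 15.3) and 17.2% (16.5 to 18). CD4 cells thus took the larger share in the knockout library, while the CD8 intervals overlap. Barcodes that the rule assigned to neither lineage were 43.7% and 42.3%. Cd274 itself, which T cells also express, was at 63.0 CPM in CD8 cells of WT-DOX and 73.5 in KO-DOX, and at 77.3 and 107 in CD4 cells. In the untreated pair it was at 63.9 and 75.6 CPM in CD8 cells and at 82.9 and 93.2 in CD4 cells, so the knockout library was the higher of each pair in both lineages.

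The genes that differed in both lineages and those that differed in CD8 cells alone held different lists of cell cycle genes. This split changed when deep or dividing cells were left out, as given below. Of the 34 genes higher in both, 12 were on the list of the G2 and M phases and 0 on that of S phase. Of the 36 higher in CD8 cells only, 7 were on the S phase list and 1 on the G2 and M list. The G2 and M list had 27 genes measured in both lineages and the S phase list 24. Of all genes measured in both, 0.465% were higher in both and 0.492% in CD8 cells only. The sequences below, credited to RefSeq on GRCm38.p6, are the 250 bases before the start of 5 genes, chosen after their values were seen and because a motif lies before the start. Capitals mark CHR (TTTGAA), the E2F site (TTTNGCGC), the interferon-stimulated response element (GAAA, then any 2 bases, then GAAA) and the CCAAT box (CCAAT), each searched on both strands. Hmgb2 (chr8:57511593-57511842, plus strand), a chromatin protein of dividing cells, and Ckap2l (chr2:129297213-129297462, minus strand), a spindle protein, were higher in both lineages of KO-DOX. Mcm5 (chr8:75109259-75109508, plus strand), a subunit of the replicative helicase, and Uhrf1 (chr17:56304063-56304312, plus strand), which passes DNA methylation on at replication, were higher in CD8 cells alone. Ifitm2 (chr7:140955962-140956211, minus strand), an interferon-induced membrane protein, was higher in both.
Hmgb2: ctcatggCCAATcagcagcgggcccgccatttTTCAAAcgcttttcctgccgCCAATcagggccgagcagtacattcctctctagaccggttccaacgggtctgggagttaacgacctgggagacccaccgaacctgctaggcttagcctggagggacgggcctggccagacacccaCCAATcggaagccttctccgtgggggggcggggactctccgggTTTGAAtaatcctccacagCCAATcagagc
Ckap2l: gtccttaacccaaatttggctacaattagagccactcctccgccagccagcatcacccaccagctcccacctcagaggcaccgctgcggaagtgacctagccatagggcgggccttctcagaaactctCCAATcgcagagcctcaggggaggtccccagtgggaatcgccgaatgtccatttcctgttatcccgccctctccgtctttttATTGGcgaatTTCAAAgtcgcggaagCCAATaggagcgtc
Mcm5: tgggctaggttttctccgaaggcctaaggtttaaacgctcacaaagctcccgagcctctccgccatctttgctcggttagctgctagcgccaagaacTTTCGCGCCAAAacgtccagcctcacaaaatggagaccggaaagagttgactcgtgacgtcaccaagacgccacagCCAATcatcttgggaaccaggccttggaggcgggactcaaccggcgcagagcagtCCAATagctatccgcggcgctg
Uhrf1: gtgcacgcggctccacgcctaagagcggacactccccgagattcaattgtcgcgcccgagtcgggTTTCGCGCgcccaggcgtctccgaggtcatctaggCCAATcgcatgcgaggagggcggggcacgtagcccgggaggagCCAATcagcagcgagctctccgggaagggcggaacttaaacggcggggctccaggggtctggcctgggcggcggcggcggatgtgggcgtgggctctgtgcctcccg
Ifitm2: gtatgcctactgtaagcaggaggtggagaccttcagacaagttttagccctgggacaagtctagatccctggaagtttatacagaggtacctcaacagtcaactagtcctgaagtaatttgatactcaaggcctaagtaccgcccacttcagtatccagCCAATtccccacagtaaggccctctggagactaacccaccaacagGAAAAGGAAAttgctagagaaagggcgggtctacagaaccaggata

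CHR began 30 bases before the start in both Hmgb2 and Ckap2l. The E2F letters began 153 and 149 bases before the start of Mcm5, as overlapping matches on the 2 strands, and 185 bases before that of Uhrf1. Over 300-base windows around all gene starts, 20.2% of 27025 genes held CHR, against 13 of the 23 genes higher in both lineages that had a promoter entry (56.5%) and 5 of the 23 higher in CD8 cells alone (21.7%). In 8 of the 13 genes higher in both the CHR match reached past the start, into the 50 bases after it. Before the start, the stretch printed above, CHR was held by 5 of 23 genes in each group (21.7%) and by 18.3% of all genes. The E2F site was held by 1.57% of all genes, by 1 of 23 (4.35%) of the genes higher in both and by 7 of 23 (30.4%) of those higher in CD8 cells alone: Clspn, Kif15, Mcm3, Mcm5, Pola1, Tfdp1 and Uhrf1. Before the start it was held by 5 of those 23 (21.7%) and by 1.31% of all genes. CCAAT boxes stood in 41.1% of all genes and in 65.2% and 52.2% of these groups. The interferon element was in 3.99% of all genes, and in Cdca3 and Ifitm2 of those higher in both. A match describes these letters in this window and is not evidence of binding.

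Of 7318 genes with a mean of at least 10 CPM over the pair in each lineage, 34 were higher in KO-DOX by a log2 fold of at least 0.5 in both lineages (0.465% of the genes measured) and 8 were lower (0.109%). The fold is on the log2(CPM + 1) scale, and its median over all genes was near 0 in both lineages (0.016 in CD8 and 0.019 in CD4 cells). A gene was counted in 1 lineage only where it passed 0.5 there, stayed under 0.25 in size in the other, and the difference between the folds lay outside its counting interval. By that rule 36 genes were higher in CD8 cells only (0.492%), 4 were lower in CD8 cells only (0.0547%), 18 were higher in CD4 cells only (0.246%) and 17 were lower in CD4 cells only (0.232%). Another 2 genes (0.0273%) passed 0.5 in opposite directions, and 94 passed it in 1 lineage without meeting the rest of the rule. Taken by lineage, 114 of 7468 genes in CD8 cells were higher by 0.5 (1.53%) and 28 lower (0.375%), and 149 of 7911 in CD4 cells were higher (1.88%) and 56 lower (0.708%). In the untreated pair 0.451% and 0.736% were higher and 0.159% and 0.317% lower. There the rules counted 12 shared higher genes of 7372 (0.163%) and 3 shared lower (0.0407%). They also counted 6 genes higher and 0 lower in CD8 cells only (0.0814% and 0%), 11 higher and 8 lower in CD4 cells only (0.149% and 0.109%) and 1 in opposite directions (0.0136%). Just inside the shared limit lay Ncapd2, a condensin subunit (0.62 in CD8 and 0.52 in CD4 cells), and just outside it lay Hells, a chromatin remodeller (0.87 and 0.49).

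**Figure D1:**
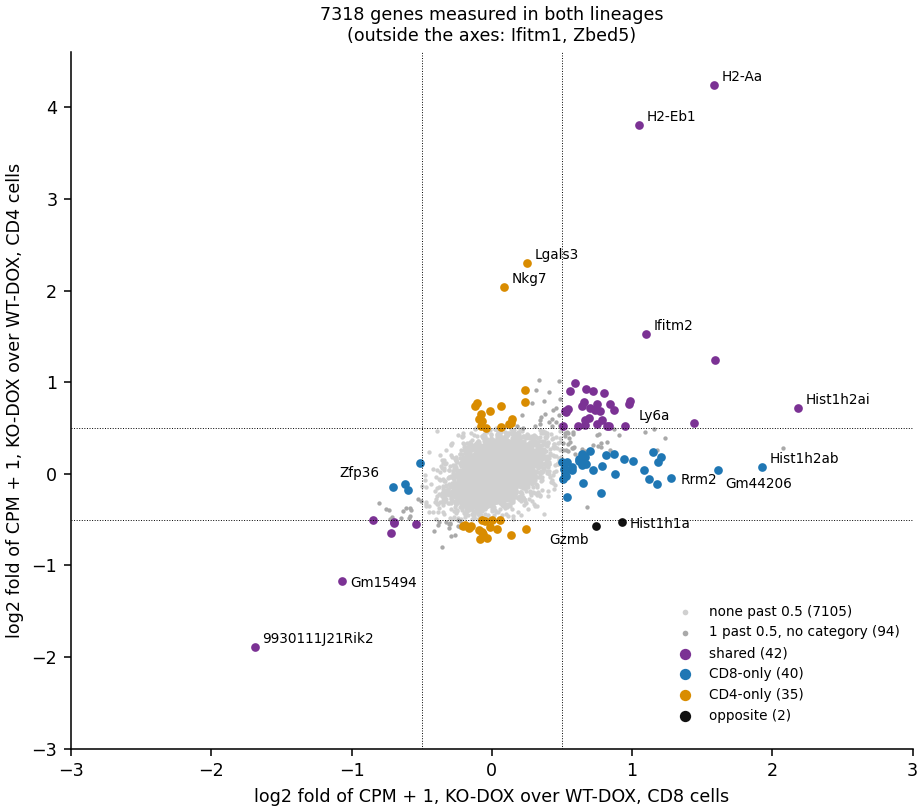
Log2 fold of CPM + 1, KO-DOX over WT-DOX, in CD8 cells (horizontal axis) and CD4 cells (vertical axis), 1 point per gene measured in both lineages, coloured by the category it was counted in. Dotted lines mark 0.5. Of the 7318 genes, 7105 lie inside both limits, the shared genes lie past the limit on both axes, and Zbed5 and Ifitm1 lie outside the axes.

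Of the 34 genes higher in both lineages, 12 were on the G2 and M list, 2 on the type I interferon list and 2 on the memory list. These lists had 27, 32 and 15 genes measured in both lineages, and 0.465% of all such genes were among the 34. Tpx2 (GRCm38 chr2:152847964-152895321), which nucleates spindle microtubules, was at 18.7 CPM in CD8 cells of WT-DOX and 38.1 in KO-DOX, with 29.8 and 38.8 in WT-CTRL and KO-CTRL, a log2 fold in the doxorubicin pair of 0.98 (interval 0.81 to 1.16). In CD4 cells it was at 39.1 and 68.3 CPM, against 46.7 and 51.6 in the untreated pair, a fold of 0.79 (0.58 to 1.0). WT-DOX was the lowest of the 4 libraries in both lineages for Tpx2, and KO-DOX the highest in CD4 cells. The other mitotic genes had similar values: Tacc3, a spindle protein, differed by 0.80 and 0.88 in CD8 and CD4 cells, Nusap1, which bundles spindle microtubules, by 0.72 and 0.90, and Plk1, the mitotic kinase, by 0.87 and 0.69. Plk1 was picked after its values were seen, as was Birc5, the survivin subunit of the chromosomal passenger complex, which differed by 0.70 and 0.72. Aspm, Cenpe, Cenpf, Dlgap5, Hmmr, Incenp, Kif4, Knl1 and Prc1 were also among the 34.

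A list of 36 genes of the G2 and M phases puts these values in context. At 5 CPM or more, 31 of its 36 members were higher in CD8 cells by at least 0.32 and 29 of 36 in CD4 cells, and 0 were lower in either, with median folds of 0.66 and 0.54. Over all genes 5.18% in CD8 cells and 7.72% in CD4 cells were higher by that size, and 2.1% and 5.1% were lower. These shares are also the ones to set beside the counts of the other lists below. In the untreated pair 14 and 8 of the list's members were higher, with medians of 0.28 and 0.20, where 2.85% and 4% of all genes were higher and 1.76% and 3.34% lower. The list's UMIs summed to 1589 CPM in CD8 cells of WT-DOX and 2242 in KO-DOX, against 2036 in WT-CTRL and 2298 in KO-CTRL. WT-DOX was the library that stood apart in CD8 cells. In CD4 cells the sums were 2354 and 3201 in the doxorubicin pair and 2691 and 2980 in the untreated pair, so there the libraries at both ends were those of the doxorubicin pair.

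Histone genes of the replication-dependent cluster reach over the boundary between the shared and the CD8 genes. Hist1h2ai (chr13:21716422-21716814), which encodes H2A, was at 6.95 CPM in CD8 cells of WT-DOX and 35.2 in KO-DOX, and at 24.8 and 23.9 in WT-CTRL and KO-CTRL, a log2 fold of 2.19 (1.95 to 2.42). In CD4 cells it was at 28.6 and 47.7, with 30.3 and 50.1 in the untreated pair, a fold of 0.72 (0.47 to 0.96). Its CD8 value in WT-DOX was thus under that of every other library, and both knockout libraries were higher than both controls in CD4 cells. Hist1h2ak and Hist1h1d were higher in both lineages too, by 1.59 and 1.44 in CD8 cells and by 1.25 and 0.56 in CD4 cells. These genes are near-identical copies in part, so reads may be split between them.

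Interferon-induced and activation genes were also among the 34. Ly6a (chr15:74994877-74998031), the interferon-induced Sca-1 antigen of activated and memory T cells, was at 63.9 CPM in CD8 cells of WT-DOX and 127 in KO-DOX, with 73.0 and 113 in the untreated pair, a fold of 0.98 (0.88 to 1.08). In CD4 cells it was at 215 and 363, with 252 and 298 in the untreated pair, a fold of 0.76 (0.67 to 0.85). For Ly6a both knockout libraries lay above both control libraries in each lineage. Ifitm2 was at 13.2 and 29.5 CPM in CD8 cells (1.10, interval 0.90 to 1.3) and at 16.5 and 49.4 in CD4 cells (1.53, 1.24 to 1.82), and in the untreated pair at 27.5 and 24.4 and at 15.4 and 24.3. In CD8 cells WT-DOX was low for Ifitm2, and in CD4 cells KO-DOX was high. Cxcr3, the receptor for interferon-induced chemokines, differed by 0.66 and 0.79, S100a4, a calcium-binding protein of memory and effector cells, by 0.67 and 0.93, Iigp1, an interferon-induced GTPase, by 0.95 and 0.53, and Lag3, an inhibitory receptor, by 0.69 and 0.61. The type I interferon list as a whole had 8 of 36 members higher in CD8 cells (median 0.21) and 9 of 35 in CD4 cells (median 0.19). In the untreated pair, 22 of 39 and 12 of 38 were higher, with medians of 0.36 and 0.25.

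The MHC class II genes H2-Aa and H2-Eb1, which T cells of the mouse hardly express, had the highest folds of the shared genes in CD4 cells, though not in CD8 cells, and came from few cells. Cd74, whose product travels with them and which was picked after its values were seen, was also shared, with folds of 0.84 and 0.76. H2-Aa was at 6.76 CPM in CD8 cells of WT-DOX and 22.2 in KO-DOX, and at 0.579 and 28.9 in CD4 cells. In CD4 cells of KO-DOX, 2 cells held 481 of 506 class II UMIs. In CD8 cells, 18 cells of WT-DOX held 414 of 448 and 14 cells of KO-DOX held 792 of 857. These few cells were deep, with medians of 25518 UMIs in the 18 and 19482.5 in the 14, and 16 and 12 of them held a UMI of a dendritic or macrophage marker. Without cells holding a UMI of another cell type's marker, the fold of H2-Aa in CD8 cells was -0.34 and that of H2-Eb1 -1.19. Ifitm1, an interferon-induced membrane protein picked after its values were seen, also came from few CD4 cells. In CD4 cells it had 2 UMIs in WT-DOX and 237 in KO-DOX, from 8 cells, 124 of them in 1 cell. In CD4 cells of KO-CTRL it had 123 UMIs from 7 cells, 111 of them in 1 cell.

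The 8 shared lower genes divided into sets by the library that stood apart. Zbed5, 9930111J21Rik2 and Gm15494 were high in WT-DOX, and Gm15494 was also lower in KO-CTRL than in WT-CTRL in both lineages. 9930111J21Rik2, a predicted interferon-inducible GTPase gene with a near copy, so that reads may be split between them, was at 89.5 CPM in CD8 cells of WT-DOX and at 27 in KO-DOX, with 32.2 and 34.9 in WT-CTRL and KO-CTRL, and at 99.7, 26.2, 32.4 and 32 in CD4 cells in the same order. Gm15494, an antisense transcript whose reads cannot be told apart from those of its partner without strand, was at 181 and 85.9 CPM in CD8 cells and at 218 and 96.4 in CD4 cells, with 113 and 76.7 and then 137 and 96.1 in the untreated pair. 2610035D17Rik, a non-coding RNA gene, was lower in both knockout libraries, at 35.4 and 21.1 CPM in CD8 cells of the doxorubicin pair and at 31.5 and 19.5 in the untreated pair. The mitochondrially encoded mt-Atp8, mt-Cytb, mt-Co3 and mt-Nd1 were instead low in KO-DOX. mt-Cytb, the cytochrome b of respiratory complex III, was at 204 CPM in CD8 cells of WT-DOX and 125 in KO-DOX, against 189 and 197 untreated, and at 177 and 122 in CD4 cells, against 165 and 169. All 11 measured genes of the mitochondrial list were lower in each lineage by at least 0.32, with medians of -0.71 and -0.48, and 0 were so in the untreated pair. Nuclear genes of oxidative phosphorylation did not follow: 0 of 27 passed 0.32 in CD8 cells and 1 of 27, higher, in CD4 cells.

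Of the 36 genes higher in CD8 cells only, 7 were on the S phase list and 4 on the histone list. These lists had 24 and 10 genes measured in both lineages, and 0.492% of all such genes were among the 36. Rrm2 (chr12:24708241-24714146), the subunit of ribonucleotide reductase that is made in S phase, was at 26 CPM in CD8 cells of WT-DOX and 64.4 in KO-DOX, with 45.8 and 63.4 in the untreated pair, a fold of 1.28 (1.13 to 1.42). In CD4 cells it was at 89.8 and 87.2 CPM, with 67.1 and 96.9 in the untreated pair, a fold of -0.04. The lineages' folds of Rrm2 differed by 1.32 (1.10 to 1.53). Hist1h2ab (chr13:23751126-23751598), another H2A gene, was at 6.90 and 29.1 CPM in CD8 cells (1.93, interval 1.69 to 2.17) and at 64.8 and 68.2 in CD4 cells (0.07), with 24 and 33.0 and then 51.7 and 75.6 in the untreated pair. For Hist1h2ab the CD8 cells of WT-DOX were again under every other library. Ccna2, the cyclin of S phase and G2, was at 14.4 and 33.1 CPM in CD8 cells (1.15) and at 47.2 and 56.0 in CD4 cells (0.24).

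Others of the 36 belong to replication origins and to activation. Mcm5, described with its promoter above, was at 18.8 and 30.2 CPM in CD8 cells (0.65) and at 33.4 and 31.2 in CD4 cells (-0.09). Uhrf1 was at 13.2 and 23.4 (0.78) and at 28.4 and 24.3 (-0.21). Mcm2, Mcm3, Gins2, Clspn, Pola1, Rfc5, Dut, Tk1 and Brca1, all of replication, nucleotide supply or repair, were counted with them. Il2ra, the high-affinity chain of the interleukin-2 receptor, was at 6.14 and 14.5 CPM in CD8 cells (1.12) and at 78.4 and 75.5 in CD4 cells (-0.05), with 10.1 and 11.5 and then 95.7 and 85.6 in the untreated pair. WT-DOX was the lowest library in CD8 cells for 35 of the 36 genes, and 0 of the 36 passed 0.5 in CD8 cells of the untreated pair. The genes were chosen for a lower level in WT-DOX than in KO-DOX, so the place of WT-DOX follows in part from the choice.

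The whole lists show the same split between lineages in the summed UMIs. Of 26 S phase genes, 18 were higher in CD8 cells and 0 lower (median 0.49), while in CD4 cells 1 was higher and 3 lower (median -0.05). Of the histone genes, 16 of 17 were higher in CD8 cells (median 1.01) and 6 of 19 in CD4 cells, with 1 lower (median 0.21). The S phase genes summed to 927 and 1241 CPM in CD8 cells of WT-DOX and KO-DOX, against 1050 and 1192 untreated. In CD4 cells they summed to 1467 and 1474 CPM, against 1445 and 1600. The histone genes summed to 671 and 1369 CPM in CD8 cells and to 1990 and 2318 in CD4 cells. The CD8 cells of WT-DOX thus held the lowest level of both lists, and CD4 cells held more of each list than CD8 cells in every library.

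**Figure D2:**
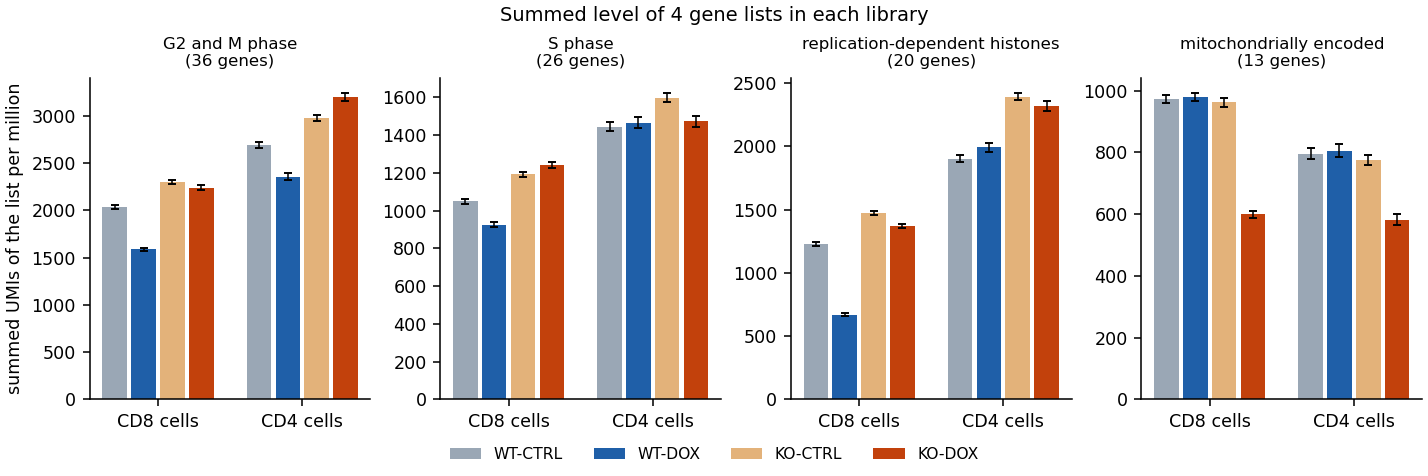
Summed CPM of 4 gene lists in CD8 and CD4 cells of the 4 libraries, with exact 95% counting intervals. The G2 and M genes and histones are low in CD8 cells of WT-DOX, S phase genes in CD4 cells are at 1467 and 1474 in the doxorubicin pair, and the mitochondrially encoded genes are low in KO-DOX in both lineages.

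Leaving out a small number of deep or dividing cells changed this split between CD8 and CD4 cells, and the cause of the split was not tested. Cells were called cycling with at least 2 UMIs of Mki67, Top2a, Birc5 and Ube2c together, and these genes are themselves members or near relatives of the lists. By that rule 2.07% of CD8 cells (106, interval 1.70 to 2.5) cycled in WT-DOX and 3.61% (148, 3.06 to 4.23) in KO-DOX, a ratio of 1.74 (1.36 to 2.22), and the ratio was 0.977 in the untreated pair. In CD4 cells 85 and 113 cells cycled, 4.66% and 6.32%, a ratio of 1.36 (1.03 to 1.78), against 1.26 untreated. Cycling cells were deep, with medians of 13932 and 15544.5 UMIs in CD8 cells, and held 8.23% of the lineage's UMIs in WT-DOX and 15.6% in KO-DOX. In CD4 cells they held 17.8% and 22%. Of the S phase UMIs, 31.0% and 53.1% lay in cycling CD8 cells, and 56.4% and 59.8% in cycling CD4 cells.

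The 3 alternatives that left such cells out were added after seeing the data. They overlap: of the deepest CD8 cells, 63 of 103 in WT-DOX and 78 of 82 in KO-DOX were cycling. So were 36 of 37 and 34 of 36 of the deepest CD4 cells. Of CD8 cells with another type's marker, 32 of 405 and 50 of 325 were cycling, and of such CD4 cells 20 of 77 and 19 of 82. Leaving out cycling cells removes S phase UMIs by construction. Without the 2% deepest cells of each lineage and library, which removed 103 and 82 CD8 cells and 37 and 36 CD4 cells of WT-DOX and KO-DOX, 5 genes were higher in CD8 cells only in place of 36, and 1 of the original 36 was among them. The S phase medians were then 0.23 in CD8 and 0.19 in CD4 cells, and the histone medians 0.53 and 1.3. The S phase medians of the lineages thus lay close together, and the histone median was the higher one in CD4 cells. Without cells holding a UMI of another cell type's marker, 3 genes were higher in CD8 cells only, 2 of them from the 36, with S phase medians of 0.32 and 0.10. Without cycling cells, 1 gene was higher in CD8 cells only, none of the 36 was kept, and the S phase medians were 0.03 and -0.04. Settings not added after seeing the data went both ways. With each cell given the same weight, 2 genes were higher in CD8 cells only, 1 from the 36. S phase medians were then 0.15 and -0.02, and histone medians 0.62 and 0.48. With the marker classes weighted alike there were 11, 7 from the 36, and outside these classes 0. Stricter lineage limits kept 26 of the 36, and leaving out each gene's largest cell 30. Changes of cell filter, scaling and pseudocount kept 36, 32 and 26. The shared higher genes numbered 20 without the deepest cells, 8 of them from the 34. Without cells holding another type's marker they numbered 47, 24 of them from the 34. Without cycling cells they numbered 5, 4 of them from the 34, and the G2 and M medians were then -0.0088 and 0.03.

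**Figure D3:**
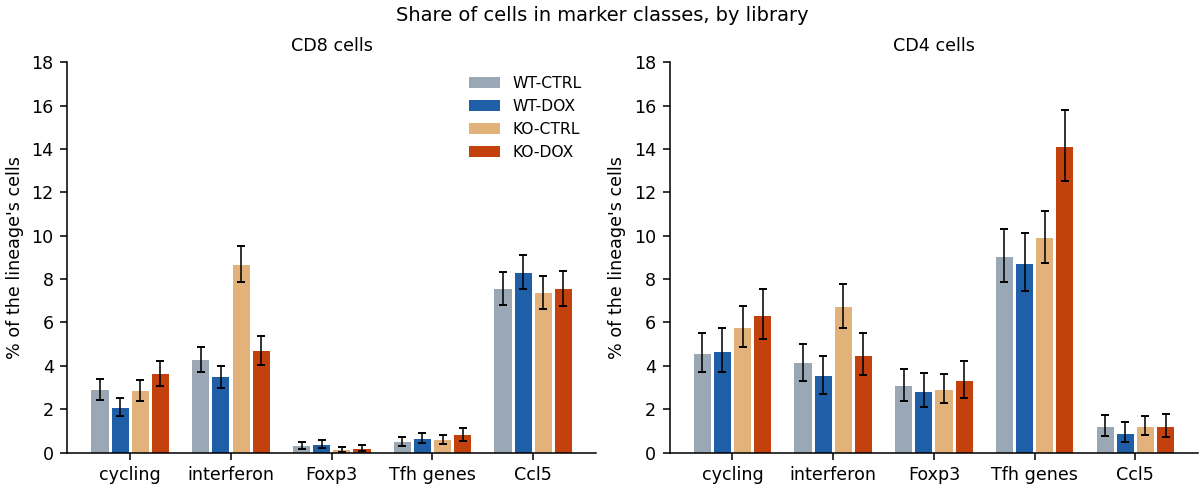
Share of each lineage's cells in 5 marker classes, by library, with exact 95% binomial intervals. Cycling cells are 2.07% of CD8 cells in WT-DOX and 3.61% in KO-DOX, and cells with follicular helper genes are 8.71% and 14.1% of CD4 cells.

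The genes with the highest folds among those higher in CD4 cells only were Lgals3 and Nkg7, and 3 genes of the cytotoxic list, Nkg7, Cst7 and Eomes, were among the 18. That list had 8 genes measured in both lineages, and 0.246% of all such genes were among the 18. Nkg7 (chr7:43437073-43438249), a granule protein of cytotoxic cells, was at 16.5 CPM in CD4 cells of WT-DOX and 71.0 in KO-DOX, with 35.9 and 54.4 in WT-CTRL and KO-CTRL, a fold of 2.04 (1.76 to 2.32). In CD8 cells it was at 629 and 668 CPM (0.09), with 578 and 652 in the untreated pair. For Nkg7 in CD4 cells WT-DOX was the lowest library and KO-DOX the highest. A UMI of it was found in 46 CD4 cells of WT-DOX, or 2.52% (1.85 to 3.35), and in 118 of KO-DOX, or 6.6% (5.49 to 7.85). With every cell thinned to 1500 UMIs the shares were 1.20% and 3.72%. In CD8 cells, 78.7% and 78.8% held one. Barcodes with a UMI of Cd79a, 0.547% and 0.906% of those kept, were at 72.4 and 166 CPM of Nkg7, from 18 and 69 UMIs, so a level above that of the CD4 cells, and also higher in KO-DOX, was found outside both lineages. The part of free RNA and of doublets in the CD4 value was not tested. Of the 118 CD4 cells of KO-DOX with Nkg7, 38 also held S100a4, 28 Ifng, 21 Cxcr6, 17 Eomes and 16 Lgals3, and 33 were cycling.

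Lgals3 (chr14:47367751-47386160), the gene for a galectin, was at 4.48 and 26.1 CPM in CD4 cells (2.30, interval 1.84 to 2.77), found in 16 and 38 cells, with 11.2 and 13.0 in the untreated pair. In CD8 cells, where 0.979% and 1.54% of cells held a UMI of it, it was at 25.4 and 30.4 (0.25), but at 0.90 on the log2 scale without the 2% deepest cells and at 0.66 without cells holding another type's marker, so its place among the CD4 genes depended on those cells. Eomes, the T-box factor of effector and memory cells, was at 7.52 and 15.0 CPM in CD4 cells (0.91), with 8.32 and 8.73 in the untreated pair, and differed by 0.23 in CD8 cells. Cxcr6, a chemokine receptor of tissue-homing effector cells, was at 13.7 and 23.6 CPM (0.74), with 16.1 and 18.7 untreated, and differed by -0.12 in CD8 cells. Dstn, which severs actin filaments, differed by 0.79 in CD4 cells and Lmo4, a transcriptional cofactor, by 0.77. KO-DOX was the highest of the 4 libraries in CD4 cells for all 18 genes, a place that the rule for choosing them favours. More of these than of the CD8 genes met the rule again in the alternatives added after seeing the data. Of the 18, 15 were counted again without the deepest cells, 14 without cycling cells and 10 without cells holding another type's marker. The first pair of these settings counted 42 and 41 CD4 genes in all. Planned settings went both ways. With each cell given the same weight, 12 of the 18 and 1 of the 36 CD8 genes were counted again. With at least 3 UMIs of Cd8a and Cd8b1 or 2 of Cd4, 10 of the 18 and 26 of the 36 were.

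**Figure D4:**
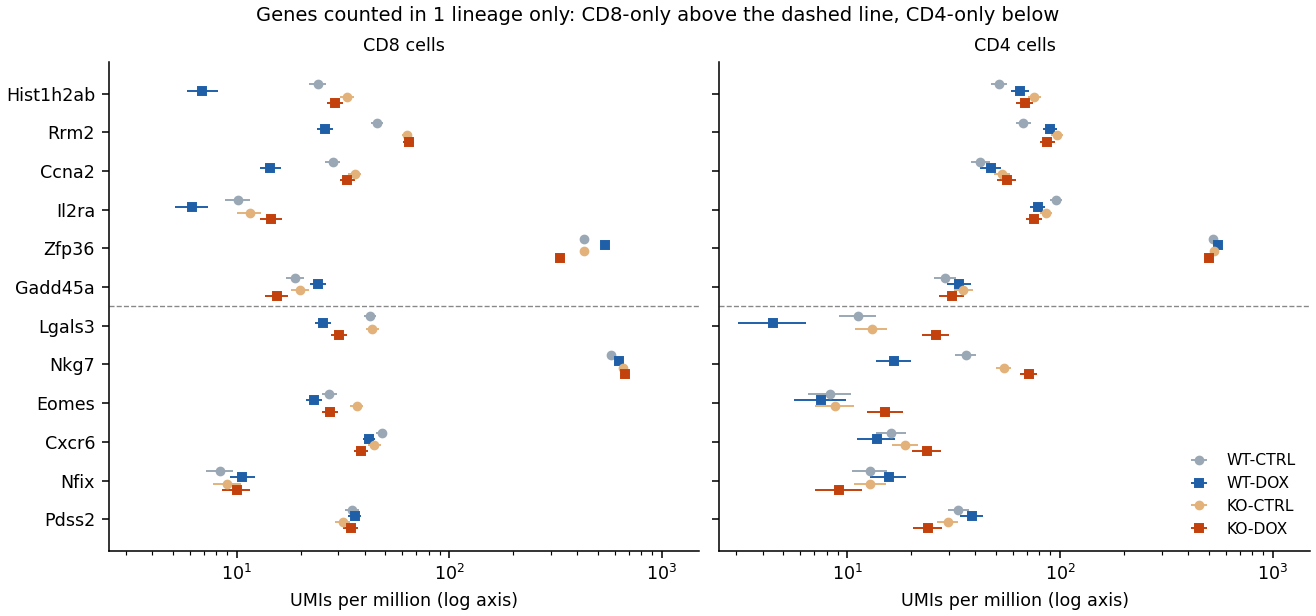
CPM, on a log axis, of 12 genes counted in 1 lineage only, in CD8 cells (left) and CD4 cells (right), with exact 95% counting intervals for each of the 4 libraries. Rrm2 and Hist1h2ab are low in CD8 cells of WT-DOX, and Nkg7 and Lgals3 spread widely in CD4 cells while their CD8 values lie close together.

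Among genes measured in CD4 cells but with a mean under 10 CPM in CD8 cells, 69 of 593 were higher and 13 lower, and follicular helper genes were among the highest. Of all genes measured in CD4 cells, 1.88% were higher by 0.5 and 0.708% lower. Sostdc1 (chr12:36314139-36318452), a secreted inhibitor of Wnt and BMP signals that follicular helper cells make, was at 52.2 CPM in WT-DOX and 149 in KO-DOX, with 52.0 and 86.7 in the untreated pair, a fold of 1.49, and was found in 54 and 120 cells. Tox2, a transcription factor of that program, was at 69.3 and 105 CPM (0.60), and Il21, the cytokine that these cells give to B cells, at 27.2 and 49.3 (0.83), both picked after their values were seen. Of 16 measured genes of the follicular helper list, 12 were higher by 0.32 or more and 0 lower in CD4 cells, with a median of 0.42, against 1 in the untreated pair and a median of 0.03. Over all genes in CD4 cells of the doxorubicin pair, 7.72% were higher by that size and 5.1% lower. Pdcd1, the gene for PD-1, was at 40.2 and 59.4 CPM in CD4 cells (0.55) and Tigit, another inhibitory receptor, at 104 and 211 (1.01).

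A class of cells with a UMI of Tox2, Sostdc1 or Il21, outside the cycling, interferon and Foxp3 classes, was 8.71% of CD4 cells in WT-DOX (7.46 to 10.1) and 14.1% in KO-DOX (12.5 to 15.8), a ratio of 1.62 (1.34 to 1.95), against 1.09 in the untreated pair. The class is defined by genes given above as higher in KO-DOX, so its share is not separate from their levels. In CD8 cells, which should lack the program, the class was 0.646% and 0.805%, with median depths of 5236 and 3948 UMIs, against 4132 and 3732.5 in CD4 cells. Weighting the classes alike in both libraries, which by construction evens out the class defined by these genes, left a list median of 0.11. Leaving out cycling cells left 0.42, and the cells outside the cycling, interferon, Foxp3, follicular and Ccl5 classes alone gave 0.31. Foxp3, the factor of regulatory T cells, was at 23.4 and 22.3 CPM in CD4 cells (-0.07), and the class defined by it was 2.79% and 3.30% of CD4 cells, against 0.352% and 0.171% of CD8 cells. In sums over a lineage, more cells of a kind and more mRNA per cell cannot be told apart.

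Fewer genes were lower in 1 lineage. Zfp36 (chr7:28376784-28380253), which destabilises cytokine mRNA, was at 542 CPM in CD8 cells of WT-DOX and 333 in KO-DOX, with 430 and 429 in the untreated pair, a fold of -0.70 (-0.75 to -0.66), and at 551 and 501 in CD4 cells (-0.14). Gadd45a, a stress gene induced by p53, was at 24.2 and 15.4 CPM in CD8 cells (-0.62) and differed by -0.11 in CD4 cells. KO-DOX was the lowest and WT-DOX the highest library for all 4 of the CD8 genes, the others being Ciart and Pkd1. The rule that chose these genes favours that order. Genes of the early T cell receptor response had 6 of 19 members lower and 2 higher in CD8 cells (median -0.29), and 4 of 20 lower and 1 higher in CD4 cells (median -0.13). Over all genes 2.1% and 5.1% were lower by 0.32 in CD8 and CD4 cells, and 5.18% and 7.72% higher. In CD4 cells Nfix, a nuclear factor I transcription factor (chr8:84699876-84800344), was at 15.6 and 9.17 CPM (-0.71), with 12.8 in both untreated libraries, and Dapl1 differed by -0.56. Nfix differed by -0.08 in CD8 cells.

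Hist1h1a and Gzmb passed 0.5 in opposite directions. Gzmb, the cytotoxic protease granzyme B, was at 20.2 and 34.5 CPM in CD8 cells (0.74) and at 40.6 and 27.1 in CD4 cells (-0.57). In the untreated pair it was at 21.6 and 38.2 and at 53.8 and 22.2, so the direction in each lineage was the same there. Hist1h1a, an H1 linker histone, was at 26.3 and 51.0 CPM in CD8 cells (0.93) and at 86.4 and 59.7 in CD4 cells (-0.52). Both depended on single groups of cells: Gzmb in CD4 cells was at 0.88 without cycling cells, and Hist1h1a in CD4 cells at 0.35 without the 2% deepest.

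Of 150 genes measured in CD8 cells only, 6 were higher and 2 lower, where 1.53% of all genes measured in CD8 cells were higher and 0.375% lower. Setbp1, which encodes a SET-binding protein, had the highest fold of the 6 and was at 5.90 CPM in CD8 cells of WT-DOX and 32.5 in KO-DOX, with 6.17 and 4.56 in the untreated pair, a fold of 2.28, and was found in 107 and 444 cells. In CD4 cells it was at 4.48 and 11 CPM (1.13), so KO-DOX was highest in both lineages. Gzmk, a granzyme of effector memory cells, was at 9.06 and 21.1 CPM in CD8 cells, with 8.23 and 20.4 in the untreated pair, and was higher in both knockout libraries by a similar amount.

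**Figure D5:**
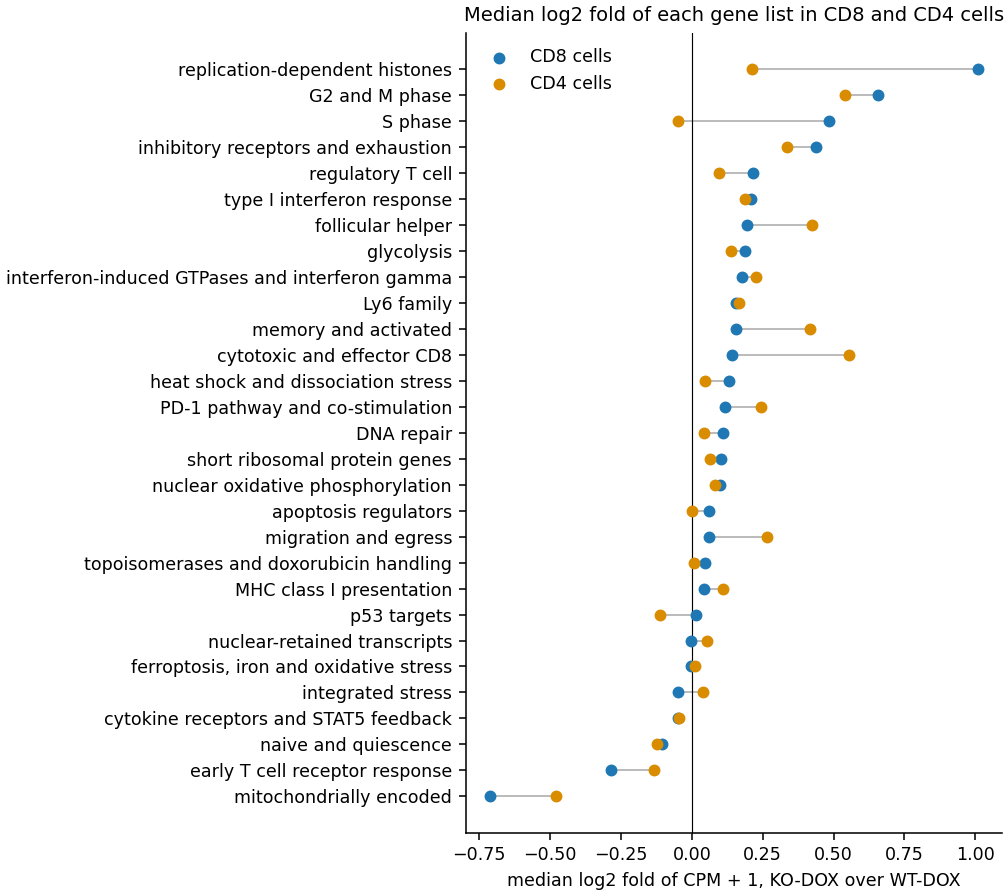
Median log2 fold of CPM + 1, KO-DOX over WT-DOX, of 29 gene lists in CD8 and CD4 cells, joined by a line. Histones and S phase genes are higher in CD8 cells, the cytotoxic, memory and follicular helper lists are higher in CD4 cells, and the mitochondrially encoded genes are lowest in both.

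Lists with medians that lay apart between lineages were few. Beside the counts that follow, 5.18% of all genes in CD8 and 7.72% in CD4 cells were higher by 0.32. Lower by that size were 2.1% and 5.1%. The cytotoxic list had 3 of 16 members higher in CD8 cells (median 0.14) and 8 of 13 higher with 1 lower in CD4 cells (median 0.55). Its CD4 median was 0.23 without cells holding another type's marker and 0.28 with at least 2 UMIs of Cd4. With each cell given the same weight it was 0.64. The CD8 medians in these settings were 0.09, 0.11 and 0.09. The memory list had 5 of 16 and 9 of 16 higher, with medians of 0.16 and 0.42. Inhibitory receptors had 6 of 10 and 6 of 11 higher, with medians of 0.44 and 0.34. Their CD4 median was 0.09 with the classes weighted alike and 0.63 with each cell given the same weight. The PD-1 pathway and co-stimulation list had 4 of 14 and 7 of 15 higher, with medians of 0.12 and 0.24. Targets of p53, which doxorubicin induces by breaking DNA, had 1 of 27 higher and 5 lower in CD8 cells and 2 of 28 higher and 5 lower in CD4 cells. Bbc3, the p53-induced death gene Puma, was at 43.6 and 35.8 CPM in CD8 cells and 44.8 and 31.7 in CD4 cells, with 23.8 and 31.2 and then 17.9 and 29.1 in the untreated pair.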

How the data were processed

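The authors deposited tables of UMI counts, genes by barcodes, for 4 single-cell 5' libraries made with the SeekOne DD kit, per the labels' protocols, on genome build mm10 per the submitters' processing notes. For aligner and cell caller, names were not given in the sources used here. Deposited totals were 42987683 UMIs over 12438 barcodes in WT-DOX and 37754389 over 10372 in KO-DOX, of which 12434 and 10372 barcodes were kept.

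UMIs were summed over the CD8 and over the CD4 cells of a library, divided by the lineage's total and multiplied to CPM, with a pseudocount of 1 for folds. Counting intervals are exact Poisson for UMIs and Clopper-Pearson for shares, at 95%, and cover counting error only. Intervals of folds, of differences between folds and of ratios are normal approximations on the log scale, and those of folds treat UMIs as independent. No test was possible with 1 library per group, so genes were counted by size (0.5 at 10 CPM, lists 0.32 at 5 CPM). The summing script was tested on simulated data. Named genes are those with the largest folds of each category (10 shared, 8 of 1 lineage, 5 of those measured in 1 lineage, 2 per list), the opposite genes and a short fixed set; others are named as picked after their values were seen. Members and lists were chosen with earlier results of these data known. Alternatives changed the cell filter, lineage limits, scaling, cell weight, level minimum, pseudocount, size, the largest cell and the mix of classes. Another 3, chosen after seeing the data, left out cells with another type's markers, the deepest cells, or cycling cells.

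Gene positions were matched for 32158 of 32285 genes in GENCODE M21. A few items are not reported here. Promoter sequences are RefSeq's for GRCm38.p6. Python 3.11.15, numpy 2.4.6, scipy 1.17.1, pandas 2.3.3 and matplotlib 3.10.9 were used.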

Additional observations from a re-analysis of the deposited data

Results flagged for a closer look

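Gzmb and Hist1h1a moved in opposite directions in the 2 lineages, and the difference was not tested, since each group is 1 library. The log2 fold of Gzmb was 1.31 higher in CD8 than in CD4 cells, and that of Hist1h1a 1.45 higher. Gzmb had the same pair of directions in the untreated libraries, and Hist1h1a was higher in both lineages there.

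For 3 genes the knockout library lay above its control under doxorubicin and below it without, and the difference was not tested. In CD8 cells the log2 fold was 2.87 higher under doxorubicin for H2-Aa and 2.18 higher for H2-Eb1. In CD4 cells it was 1.46 higher for S100a4. The class II UMIs came from the few deep cells described above.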

How the results depend on the processing

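No paired analysis was possible because each group is 1 library, and no replicate could be left out. Of the folds of named genes, 2336 alternative values stayed within their counting interval, 512 left it and 45 changed sign from a main fold of at least 0.5 in size. For lists the numbers were 679, 74 and 1, with a sign change counted from a main median of at least 0.32 in size. Sign changes of smaller folds and medians were not counted as such and lie in the other numbers. For counts and shares 44 stayed within their limit and 65 did not, the limit being 1.5 times for a count of genes and the counting interval for a lineage share. The cause was not tested except where fewer cells or genes enter by construction. Counts follow in the order shared higher, shared lower, CD8-only higher, CD8-only lower, CD4-only higher, CD4-only lower and opposite, where they moved.

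With at least 3 UMIs of Cd8a and Cd8b1 or 2 of Cd4, shared lower genes were 13, CD4-only higher 49 and CD4-only lower 70, the CD4 share ratio was 1.43 and Ccl4 in CD4 cells was at -0.79. With each cell given the same weight, counts were 12, 3, 2 and 10, then 60 CD4-only higher and 0 opposite, and Gzmb in CD4 cells was at 0.30. With a 25 CPM minimum, shared higher were 10, then 12 and 1 in CD8 cells and 5 and 5 in CD4 cells. With no minimum the counts were 122, 28, 99, 11, 173, 131 and 18. With a pseudocount of 5, shared lower were 5, CD8-only lower 2, CD4-only lower 8 and opposite 1. A size of 0.32 gave 107, 38, 93, 27, 96, 76 and 5, and a size of 1 gave 4, 3, 10, 0, 2, 0 and 0.

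With the largest cell of each gene left out, opposite genes were 0, Ccl4 in CD4 cells was at -0.39 and H2-Eb1 in CD8 cells at -0.28. With equal class proportions, shared higher were 5, shared lower 5, CD8-only higher 11 and opposite 0, and in CD8 cells Cdc20 was at -0.020 and Mt1 at -0.067. In the remaining class alone, counts were 9, 4, 0, 11, 62, 37 and 0. There, in CD8 cells, Bcl2a1d was at -0.64, Brca1 at -0.13, Ccna2 at -0.080, Cdc20 at -0.026, Gm44206 at -0.76, Hells at -0.022, Il2ra at -0.12, Pdcd1 at -0.017, Tacc3 at -0.073, Tpi1 at -0.053 and Tpx2 at -0.00025. In CD4 cells Cdc20 was at -0.52, Gzmb at 0.41, Hist1h2ai at -0.53, Hist1h2bb at -0.30, Hist1h3f at -0.095 and Tpx2 at -0.038.

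Without cells holding a UMI of another type, CD8-only higher were 3 and opposite 1. Ccl4 in CD4 cells was at -0.52, H2-Aa in CD8 cells at -0.34, H2-Eb1 at -1.19 in CD8 and -0.13 in CD4 cells, and Hist1h1a in CD4 cells at 0.11. Without the 2% deepest cells, shared higher were 20, shared lower 5, CD8-only higher 5, CD4-only higher 42 and opposite 0, and Hist1h1a in CD4 cells was at 0.35. Without cycling cells, shared higher were 5, shared lower 5, CD8-only higher 1, CD4-only higher 41, CD4-only lower 28 and opposite 1. There, in CD8 cells, Bcl2a1d was at -0.51, Brca1 at -0.17, Ccna2 at -0.19, Cdc20 at -0.058, Gm44206 at -0.49, Hist1h1a at -0.039, Il2ra at -0.049, Mt1 at -0.070, Tacc3 at -0.064, Tpi1 at -0.037, Tpx2 at -0.057 and the G2 and M median at -0.0088. In CD4 cells Cdc20 was at -0.47, Gzmb at 0.88, Hist1h2ai at -0.21, Hist1h2bb at -0.23 and Hist1h3f at -0.32.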

Other observations

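Barcodes that the rule assigned to neither lineage give values from other cells of the same 2 libraries. In them 20 of the 34 shared higher genes passed 0.5, with a median fold of 0.56, and Ly6a was at 128 CPM in WT-DOX and 214 in KO-DOX. Of the 36 genes higher in CD8 cells only, 4 passed 0.5 there (median 0.32), and of the 18 higher in CD4 cells only, 2 did (median 0.19). Sostdc1 was at 9.83 and 35.9 CPM and Setbp1 at 8.42 and 24.4 in these barcodes, with KO-DOX the higher library for both.

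The interferon class, cells with at least 3 UMIs of Ifit1, Ifit3, Isg15, Ifit3b, Rsad2 and Usp18 together, was 3.46% of CD8 cells in WT-DOX and 4.68% in KO-DOX. The ratio was 1.35 (1.11 to 1.65), against 2.04 in the untreated pair.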
